A study of Mus musculus with 15 samples.

Results

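Solute carriers are membrane proteins that move ions, sugars, amino acids, neurotransmitters, metals, vitamins and organic ions across cell and organelle membranes. They are sorted into numbered families by sequence, and Slco genes encode the organic anion transporters of the same superfamily. In brain tissue they end synaptic signals by taking transmitter back up (Slc1 and Slc6), fill synaptic vesicles (Slc17, Slc18 and Slc32), set chloride and calcium gradients, and carry nutrients over the blood-brain barrier.

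The genes described here are the 162 genes outside chromosome 1 that the authors' H3 tables name with a symbol beginning with Slc and a digit, or with Slco, of 6691 genes named there in all. They hold 379 occupancy positions and 8 nucleosome shifts. A gene enters by holding at least 1 listed position, so the 162 are not all solute carrier genes. Among protein-coding RefSeq genes outside chromosome 1, 163 of 369 with such a symbol (44.2%) were named under that or an older symbol, against a background of 29.5% of all 20696. Median gene length was 30.2 kb for the former and 16.6 kb for the latter. Within a length class the shares were closer, at 33.3% against 26.2% for 10 to 30 kb, 57.4% against 44.7% for 30 to 100 kb, and 78.9% against 70.2% above 100 kb. Below 10 kb they were 11.7% and 10.9%. The symbol also takes in Slc9a3r1 and Slc4a1ap, which encode a scaffold and an adaptor rather than transporters, and the pseudogene Slc22a13b-ps.

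The study profiled nucleus accumbens, a reward region of the ventral forebrain, from C57BL/6 mice 48 hours after the last of 10 daily defeats by CD1 aggressors. Defeated mice that avoided a social target made up the susceptible group and those that did not the resilient group; for controls no defeat is described. Punches of 10 mice were pooled per replicate, and all cell types of the punch enter 1 sample, so that a difference in nucleosomes within a cell type and a difference in cell mixture cannot be told apart. Histone H3 was immunoprecipitated from chromatin digested with micrococcal nuclease, and ACF1, the accessory subunit of the ACF nucleosome remodeller, from sheared chromatin. Each group gave 1 sample per target, and each pair of groups 1 deposited table of occupancy and 1 of shifts (the labels tell of triplicates, which the tables do not show apart), so there is no spread between replicates and no test between groups for any value below. The tables list selected positions marked Up or Down, without size, read count or p-value, and depth is unknown. Up is taken as higher in the first-named group, as the tables' names put it; no header states this, and with the opposite reading every direction turns round. All 3 comparisons share libraries in pairs, so a position named in more than 1 table is given with each table's own value and is not independent evidence.

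A position in the proximal promoter, within 250 bp of the gene start, was listed for 4 solute carrier genes. For 3 of them RefSeq holds the promoter, and the 250 bases before the start are shown, 5′ to 3′ on the gene's strand, because the listed nucleosome lies in them by its distance. Capitals mark CG, the dinucleotide at which mammalian DNA is methylated. The sequences are from GRCm38.p6, at chr11:55151709-55151958, chr11:3914665-3914914 and chr9:119190396-119190645, all on the minus strand. The H3 tables are on mm9, so the listed base itself is not marked.
Slc36a3: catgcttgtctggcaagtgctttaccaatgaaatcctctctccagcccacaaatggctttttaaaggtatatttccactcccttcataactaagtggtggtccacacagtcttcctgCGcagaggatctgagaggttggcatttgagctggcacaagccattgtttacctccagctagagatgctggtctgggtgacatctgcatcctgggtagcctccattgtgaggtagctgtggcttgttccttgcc
Slc35e4: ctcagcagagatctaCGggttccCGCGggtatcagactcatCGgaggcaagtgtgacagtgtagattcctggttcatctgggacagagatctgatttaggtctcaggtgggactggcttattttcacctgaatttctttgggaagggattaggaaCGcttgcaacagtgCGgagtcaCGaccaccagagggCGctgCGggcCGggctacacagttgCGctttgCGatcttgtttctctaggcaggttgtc
Slc22a14: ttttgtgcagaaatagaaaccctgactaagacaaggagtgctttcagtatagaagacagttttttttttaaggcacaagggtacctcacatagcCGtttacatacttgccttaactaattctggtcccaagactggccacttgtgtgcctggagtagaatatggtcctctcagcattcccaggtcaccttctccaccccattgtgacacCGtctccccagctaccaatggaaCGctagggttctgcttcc

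Slc36a3, of the proton-coupled amino acid transporter family, was listed at -133.5 bp from its start, a site that was Up in susceptible against control and that resilient against susceptible gave as Down. Slc35e4, of the nucleotide-sugar transporter family, was listed Down at -224.5 bp from its start in resilient against susceptible. Slc22a14, an organic ion transporter gene, was listed Up at -110.5 bp from its start in the same table. The fourth, Slc5a9, a sodium-glucose cotransporter gene with no promoter in the table used, was listed Down at 29.5 bp from its start in susceptible against control. The printed promoters differ in CG, with 1 in Slc36a3, 12 in Slc35e4 and 3 in Slc22a14, and in GC content, with 49.6%, 53.6% and 46.8%. Over the 170 promoters of the 132 genes with an entry, the medians were 6.00 CG and 55.6% GC, beside 6.00 and 52.4% over 30828 promoters outside chromosome 1. The latter belong to 25374 genes and were not limited to protein-coding ones, so the sets may differ in gene type. TATAAA, searched on both strands, was in none of the printed sequences, in 11.8% of the solute carrier promoters and in 12.4% of all. AAAAAAAA, searched on both strands, was in Slc22a14 alone of those printed, in 7.06% of the solute carrier promoters and in 7.24% of all. These letters are descriptions of the window and name no bound factor.

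In susceptible against control, the authors' deposited table listed 152 solute carrier positions in 101 genes, 94 Down and 58 Up. The share Up was 38.2%, beside a background of 37.6% over all 5567 positions given a gene outside chromosome 1 and 40.4% over all 16617 listed there, with or without a gene. The share of the 162 genes with a position was 62.3%, beside 53.9% of all named genes. Positions were Down only in 56 genes, Up only in 32 and of both kinds in 13. Resilient against control held 122 positions in 81 genes, 81 Down and 41 Up. Here 33.6% were Up, beside 36.7% of the positions given a gene and 38.3% of all. The 81 genes stand beside a background of 53.3%. Resilient against susceptible held 105 positions in 78 genes, 54 Down and 51 Up. The 48.6% Up lay beside 49.8% of the positions given a gene and 48.8% of all, and the 48.1% of genes beside 49.2%. In direction, and in the share of already named genes with a position in each table, solute carrier genes thus lay near the genes at large. Among these shares the widest gap was 62.3% against 53.9%, in susceptible against control. The share of genes named at all differed more, at 44.2% against 29.5%, with gene length not taken into account.

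Where 3 sets of numbers follow each other below, they are for susceptible against control, resilient against control and resilient against susceptible, in that order. The background for the direction of every group of genes below is the share Up over all positions given a gene, 37.6%, 36.7% and 49.8%. Most of these genes held few positions. Over the 3 tables together 73 held a single position and 17 held 5 or more. The median was 2.00 positions per gene, beside 1.00 over all named genes. Gene length went with the number of positions (Spearman's rho = 0.44 across the 162 genes, beside 0.47 across all named genes; genes are not replicates, and all share the same libraries). The 162 genes had a median length of 42.6 kb, and 3.24 positions per 100 kb, beside 36.9 kb and 2.75 for all named genes. Numbers differed between long genes. Slc8a1, the sodium-calcium exchanger gene of 365 kb, held 3 positions and Slc44a5, a choline transporter-like gene of 298 kb, held 2. Slc25a21 held 22 in 448 kb. These genes were picked as examples, and the difference was not tested. Small genes reached high densities with few positions, as Slc12a3 with 6 in 37.0 kb and Slc7a9 with 4 in 16.9 kb. Since a gene enters by holding at least 1 listed position, a very short member has a high density by that rule alone.

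**Figure D1:**
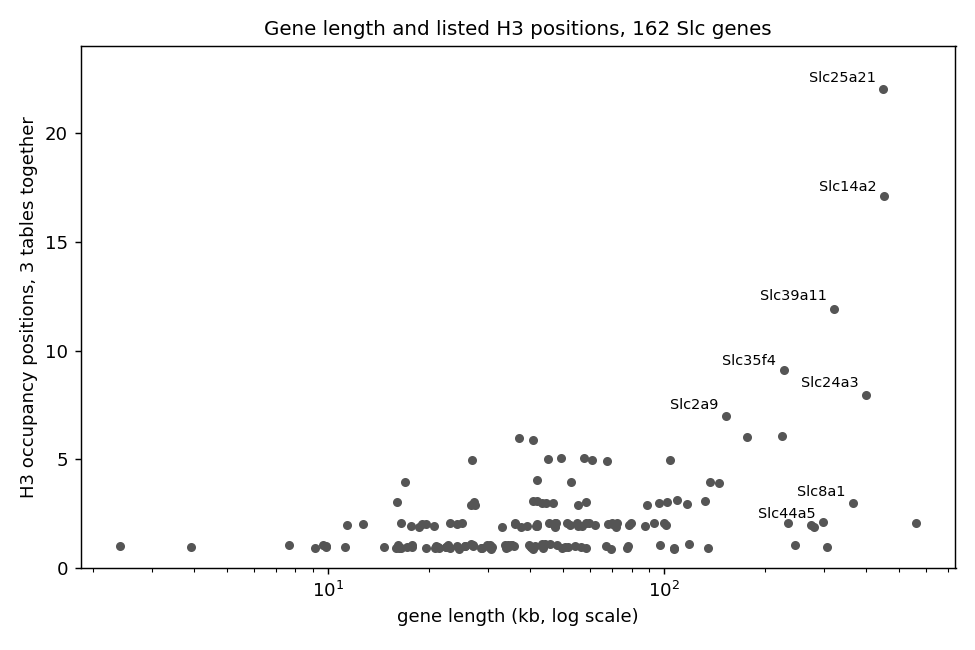
Each point is 1 of the 162 solute carrier genes, by its length in kb on a log scale (x) and its listed H3 occupancy positions over the 3 tables (y, moved by a small random amount so that points do not hide each other). Slc25a21 holds 22 positions, while Slc44a5 and Slc8a1, also long, hold 2 and 3.

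Within the genes, positions were spread and did not pile up. Of 360 positions inside the bounds, 26.4% lay in the part nearest the start when each gene is cut in 3 equal parts, 38.6% in the middle part and 35.0% in the last, beside 30.8%, 33.4% and 35.8% for all genes. Promoter classes, out to 3000 bp from the start, held 14 of 152, 8 of 122 and 8 of 105 positions in the 3 tables (9.21%, 6.56% and 7.62%), beside 13.5%, 12.7% and 12.2% for all genes. In each table neighbouring positions of a gene were never within 200 bp of each other, about 1 nucleosome and its linker, and their median spacing was 17460, 16780 and 38290 bp. Of 51, 41 and 27 neighbour pairs, 2, 1 and 1 were within 1000 bp. The spacing over all genes was not measured. The proximal promoter class alone held 2, 0 and 3 of the positions (1.32%, 0% and 2.86%), beside 1.02%, 1.10% and 0.989% for all genes. The classes together thus had a lower share for solute carrier genes than for the genes at large in each table, but the class nearest the start did not in 2 of the tables, all on few positions and untested.

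Slc25a21, which encodes the mitochondrial carrier of 2-oxodicarboxylates such as 2-oxoadipate, held the most positions of the 162 genes. It lies on chromosome 12 from 57813621 to 58261630. In susceptible against control it had 7 Up and 4 Down positions, in resilient against control 1 Up and 6 Down, and in resilient against susceptible 4 Up. The positions were spaced over the gene from 49.8 to 421 kb from the start. Of these sites 3, at 59.6, 340 and 389 kb, were Down against control in both stressed groups. No Up position was named in more than 1 table. The listed changes of this gene therefore did not share 1 direction or 1 site.

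The other mitochondrial carriers, which supply the organelle with metabolites, held fewer positions each. The 9 genes of family Slc25 held 11 Up and 7 Down positions in susceptible against control, 3 Up and 12 Down in resilient against control, and 10 Up and 0 Down in resilient against susceptible. The shares Up over all positions given a gene were 37.6%, 36.7% and 49.8%. Without Slc25a21 the numbers were 4 Up and 3 Down, 2 Up and 6 Down, and 6 Up. Slc25a13, the aspartate-glutamate carrier citrin, had 2 Up, 2 Down and 2 Up, at different sites in each table. Its neuronal relative Slc25a12 had 1 Down in susceptible against control and 1 Up in resilient against susceptible. Slc25a26, the carrier of S-adenosylmethionine, the methyl donor, had 1 Down, then 2 Up and 1 Down, then 1 Up; a site 73.7 kb from its start was Up for the resilient group in both of its tables. Slc25a37, the mitochondrial iron importer mitoferrin, had 1 Up at 1.88 kb from its start, 1 Down and 1 Up.

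**Figure D2:**
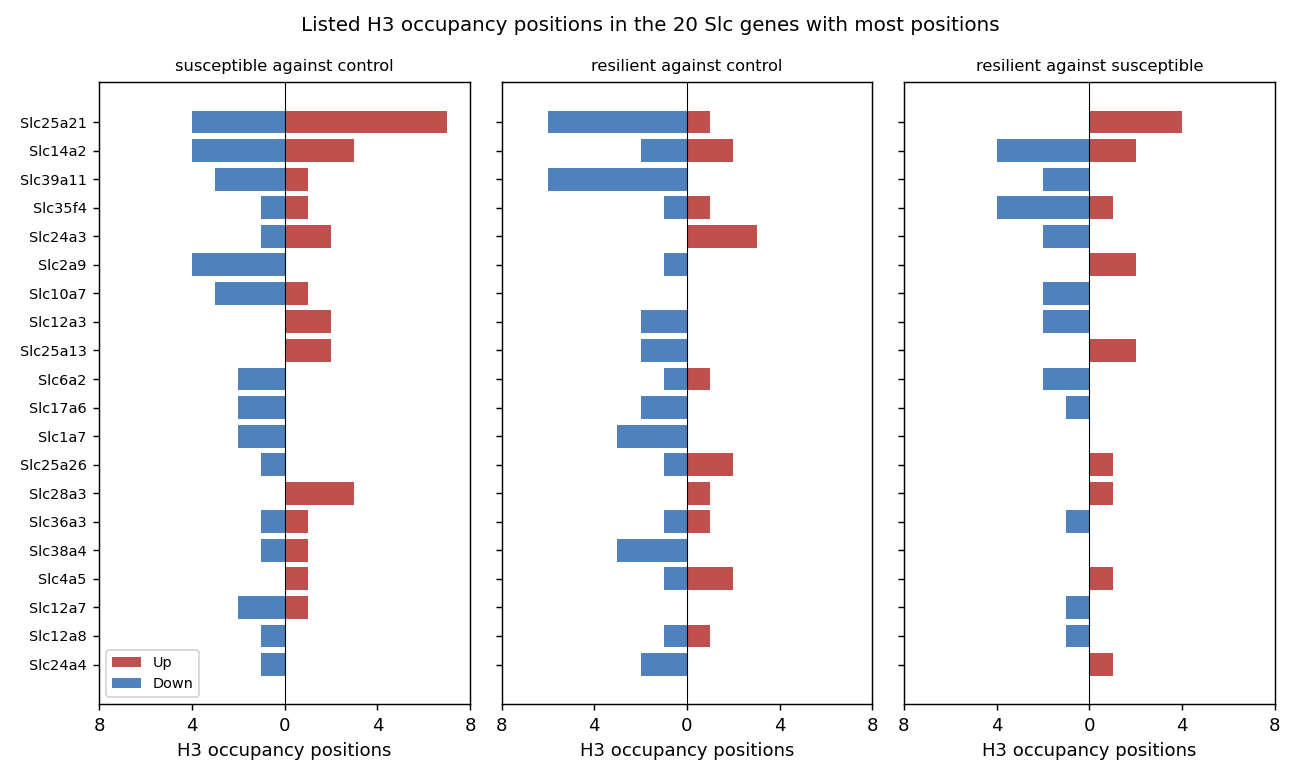
Bars give the number of H3 occupancy positions (x) Up (red, to the right of 0) and Down (blue, to the left) in the 20 solute carrier genes with most positions, 1 panel per comparison. Slc25a21 has 7 Up and 4 Down in susceptible against control and only Up positions, 4, in resilient against susceptible, while Slc39a11 has 6 Down in resilient against control.

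Among 21 neurotransmitter and vesicular transporter genes with a position, Down positions were the larger number in each table, with 13 of 19, 11 of 16 and 9 of 11. The shares Up were 31.6%, 31.2% and 18.2%, beside the 37.6%, 36.7% and 49.8% of all positions given a gene. Slc17a6, the vesicular glutamate transporter VGLUT2 of thalamic and other subcortical neurons, was Down at all of its 5 positions: 2, 2 and 1. The site 11.2 kb from its start was Down against control in both stressed groups, and near its end sites at 47.1 kb (susceptible against control) and 47.4 kb (resilient against control) were both Down. Slc17a8, the vesicular glutamate transporter VGLUT3, had 1 site at 14.9 kb that was Up in susceptible against control and Down in the resilient group when set against the susceptible one. Slc17a2, of the phosphate transporter branch of that family, had 1 site at -2.75 kb from its start with the same pair of directions. Its neighbours Slc17a1 and Slc17a3 held 1 Down and 1 Up position in susceptible against control.

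Of the plasma membrane glutamate transporters, Slc1a7, the retinal transporter EAAT5, held 2 Down positions in susceptible against control. It held 3 Down in resilient against control, and the last table did not name it. Slc1a2, the main astrocytic transporter GLT-1, was Down at 19.2 kb against control in both stressed groups and Up at 8.14 kb in resilient against susceptible. Slc1a6, a transporter of cerebellar Purkinje cells, had 1 Up in resilient against control. The 3 genes held 7 Down positions of 8 in the tables against control, where 62.4% and 63.3% of all positions given a gene were Down. The Slc1a2 site at 19.2 kb and a Slc1a7 site at 37.5 kb were named in both tables and enter the 7 once for each.

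The monoamine transporters each had few positions. Slc6a2, the noradrenaline transporter, had 2 Down in susceptible against control, then 1 Up and 1 Down, then 2 Down. Its site at 31.2 kb was Down against control in both stressed groups. Slc6a3, the dopamine transporter, had 1 Down at 8.60 kb and 1 Up at 21.8 kb in susceptible against control, and Slc6a4, the serotonin transporter, 1 Down at 21.3 kb in resilient against susceptible. Dopamine, noradrenaline and serotonin neurons have their cell bodies outside the accumbens. Slc18a2, the vesicular monoamine transporter VMAT2, was Up at -1.03 kb from its start in susceptible against control, and Slc18a1, VMAT1, had 2 Down in the same table. Slc18a3, the vesicular acetylcholine transporter of cholinergic interneurons, was Down in its single position, 1.92 kb after its start, in resilient against control.

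GABA and glycine transporters were split in direction. Slc6a11, the astrocytic GABA transporter GAT3, was Up in resilient against susceptible. Slc6a12, the betaine-GABA transporter, was Down at a different site in each table with the resilient group. Slc6a13, the GABA transporter GAT2, had 1 Up and 1 Down in resilient against control. Slc6a5, the neuronal glycine transporter, was Up in both stressed groups against control, at sites 21.9 and 22.4 kb from its start. Of the amino acid branch of the family, Slc6a20a, which carries proline, was Down at all 4 positions, 1 site at 14.7 kb against control in both stressed groups and 2 others in resilient against susceptible. Slc6a15, a neuronal transporter of neutral amino acids, had 1 Up in resilient against control and Slc6a18, a renal relative, 1 Down in susceptible against control. Slc32a1, the vesicular GABA transporter of the inhibitory cells that make up most of this region, held no listed position, nor did the cortical vesicular glutamate transporter Slc17a7. A gene with no listed position was not selected, which does not show that it was equal between groups.

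Sugar transporters, like the other groups, were grouped by whole family (Slc2, Slc5, Slc37 and Slc45), not by each gene's own substrate. The 15 genes held 14 Down and 2 Up positions in susceptible against control, 9 Down and 1 Up in resilient against control, and 3 Up in resilient against susceptible. The shares Up against control were 12.5% and 10.0%, beside 37.6% and 36.7% of all positions given a gene, which were thus mostly Down too, and the 3 Up stand beside 49.8%. Slc2a9, a urate transporter of the GLUT family on chromosome 5, had 4 Down, 1 Down and 2 Up, with 1 of the Down positions 2.64 kb after its start. Slc5a4a, a glucose sensor relative of the sodium-glucose cotransporters, had 3 Down in susceptible against control, and Slc5a9 2 Down and 1 Down against control. Slc5a11, a myo-inositol transporter, had 1 Down and 2 Down, with the site at 34.8 kb in both. Slc5a1, the intestinal glucose transporter, had 2 Down in resilient against control. Slc2a1, the glucose transporter of the blood-brain barrier, held no listed position.

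**Figure D3:**
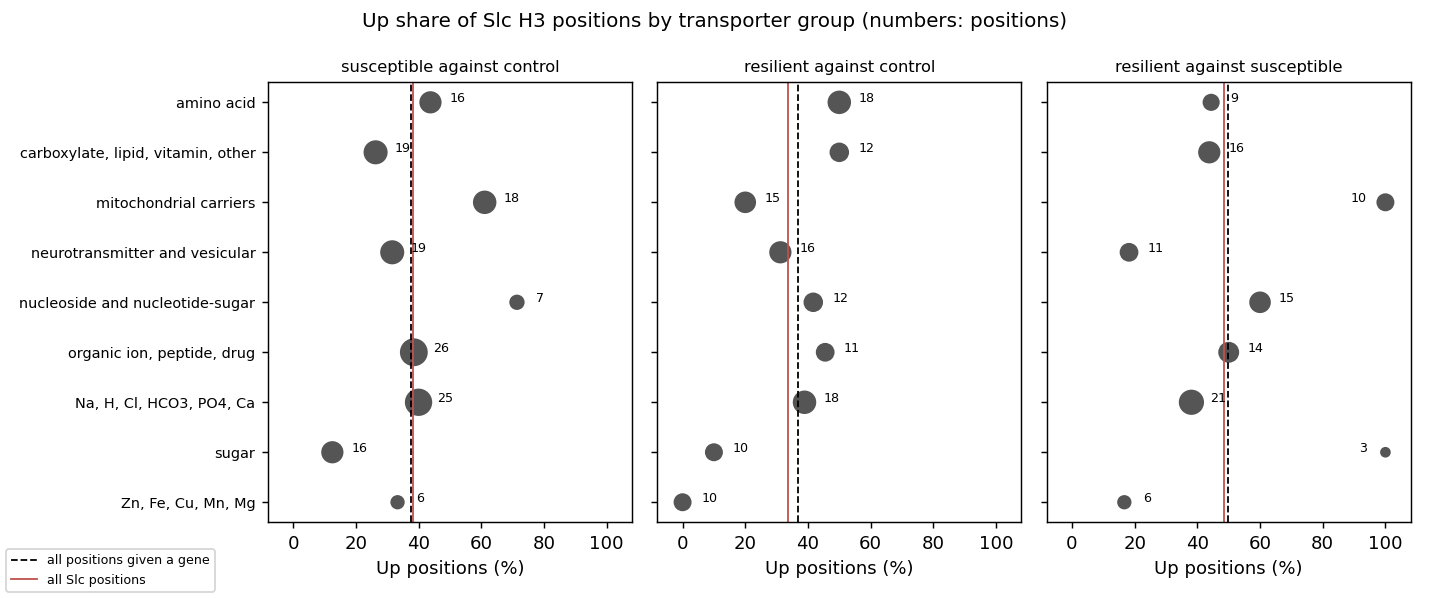
Each point gives the share of Up positions in percent (x) for 1 of 9 transporter groups (y), 1 panel per comparison; point area and the number beside it give the positions. The dashed line is the share over all positions given a gene outside chromosome 1 and the red line that over all solute carrier positions. Mitochondrial carriers stand at 61.1% of 18, 3 of 15 and 10 of 10 positions, and sugar transporters at 12.5% of 16, 1 of 10 and 3 of 3.

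Metal transporter genes held 10 Down positions and 0 Up in resilient against control, where 63.3% of all positions given a gene were Down, and 6 of the 10 were in Slc39a11 alone. Their 8 genes held 2 Up and 4 Down in susceptible against control and 1 Up and 5 Down in resilient against susceptible. Most came from Slc39a11, the zinc transporter ZIP11 on chromosome 11 from 113106169 to 113427129, with 1 Up and 3 Down, then 6 Down, then 2 Down. Of the 6 in resilient against control, 4 lay between 215 and 244 kb from the start. Slc11a2, the iron transporter DMT1, and the zinc transporter Slc30a5 had 1 Down each in that table. Slc30a2, also a zinc transporter, had 1 Down in each table against control, and Slc41a3, of a magnesium transporter family, 1 Down and 2 Down in the 2 tables with the resilient group.

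Ion transporters of sodium, chloride, bicarbonate and calcium held 10 Up and 15 Down, 7 Up and 11 Down, and 8 Up and 13 Down positions over 27 genes. The shares Up were 40%, 38.9% and 38.1%, beside 37.6%, 36.7% and 49.8% of all positions given a gene, and the gap was widest in resilient against susceptible. Slc24a3, a potassium-dependent sodium-calcium exchanger on chromosome 2, had 2 Up and 1 Down in susceptible against control, then 3 Up, then 2 Down, all at different sites. Its relative Slc24a4 had 1 Down, 2 Down and 1 Up. Slc12a3, the thiazide-sensitive sodium-chloride cotransporter of the kidney, had 2 sites, at 13.8 and 29.6 kb, that were Up in susceptible against control, whereas resilient against susceptible gave both as Down, and 2 other sites Down in resilient against control. Slc12a7, a potassium-chloride cotransporter, had 1 such site at 46.2 kb and 2 Down in susceptible against control. Slc12a8 had 1 Down, then 1 Up and 1 Down, then 1 Down. Slc4a5, a bicarbonate cotransporter of the choroid plexus, had 1 Up, then 2 Up and 1 Down, then 1 Up. Slc8a1 was Down at 83.1 kb against control in both stressed groups and Up at another site in resilient against susceptible. Slc9a3, a sodium-proton exchanger, had 2 Down and 1 Down in the tables with the susceptible group, and Slc26a7, an anion exchanger, 1 Up and 1 Down, then 1 Down.

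**Figure D4:**
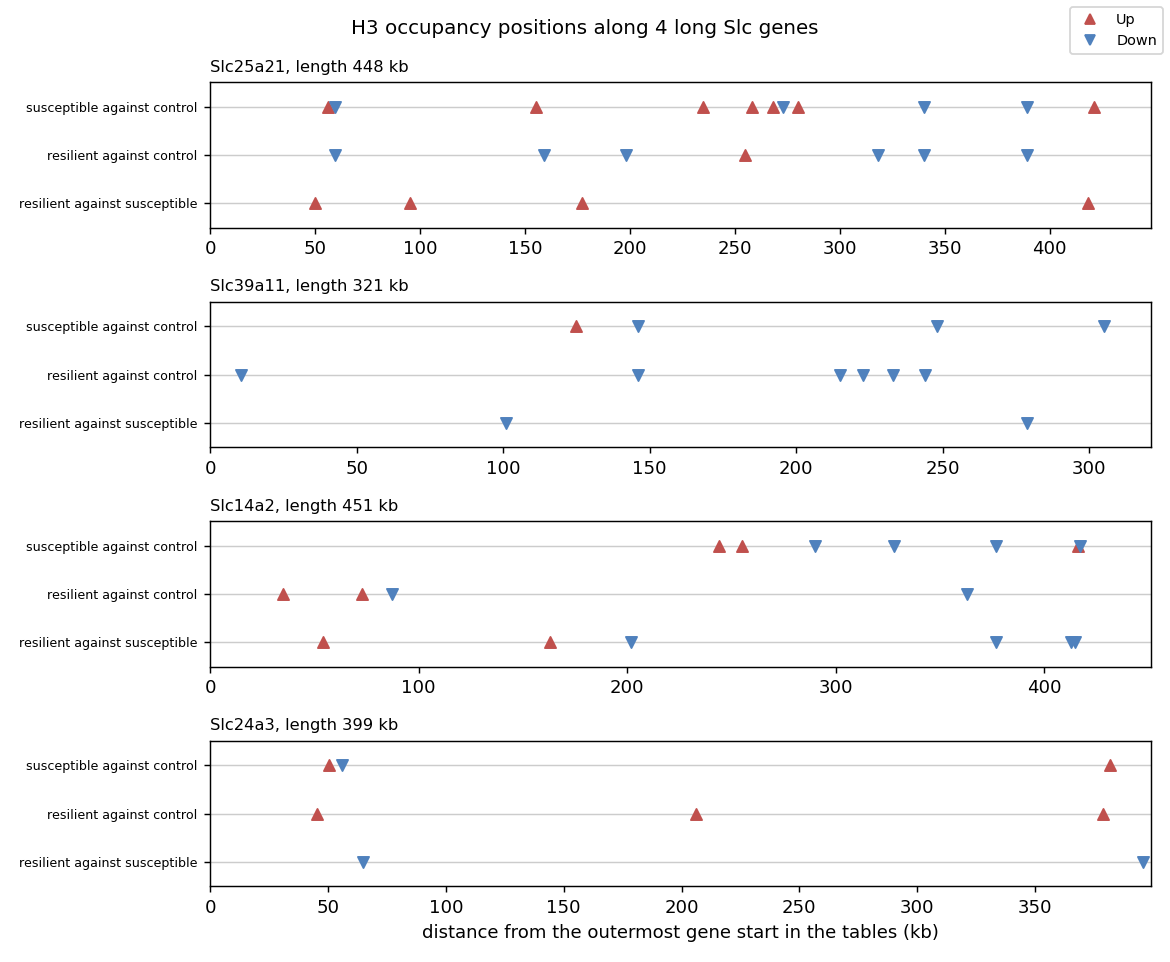
Listed H3 occupancy positions along Slc25a21, Slc39a11, Slc14a2 and Slc24a3, by distance from the outermost gene start in kb (x), with 1 line per comparison; red triangles point up for Up and blue ones down for Down. In Slc39a11, 4 of the 6 Down positions of resilient against control lie between 215 and 244 kb, whereas the positions of Slc25a21 are spaced over the gene from 49.8 to 421 kb.

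Amino acid transporters held 7 Up and 9 Down, 9 Up and 9 Down, and 4 Up and 5 Down over 19 genes. Slc38a4, a neutral amino acid transporter, had 1 Up and 1 Down in susceptible against control, whereas its 3 positions in resilient against control were Down. Slc38a1, a neuronal glutamine transporter, had 1 Down in each table with the susceptible group. Slc7a9, the cystine transporter subunit of kidney, had 1 Down, then 1 Up at -278.5 bp from its start, then 1 Up and 1 Down. Slc36a2 and Slc36a3, neighbours on chromosome 11, had 1 Down, 1 Down and 1 Up, and 1 Up and 1 Down, 1 Up and 1 Down, and 1 Down.

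Organic ion, bile salt, peptide and drug transporters, with 29 genes, held 10 Up and 16 Down, 5 Up and 6 Down, and 7 Up and 7 Down. Slc10a7, of the bile acid transporter family, had 1 Up and 3 Down in susceptible against control, whereas resilient against susceptible gave 2 Down. Slc22a27, of the organic ion family, had 1 Up and 2 Up in the tables with the susceptible group, and Slc15a5, of the peptide transporter family, 1 Up, 1 Down and 1 Up. The 7 Slco genes held 4 Up and 1 Down, 3 Up and 0 Down, and 1 Up and 3 Down, beside the same background, on few positions and untested. Slco1a5 was Up at 1 site in each table. Slco1a4, a transporter of the blood-brain barrier, was Up at -1019.5 bp from its start in susceptible against control.

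Nucleoside and nucleotide-sugar transporters held 5 Up and 2 Down, 5 Up and 7 Down, and 9 Up and 6 Down over 13 genes. Their shares Up were 71.4%, 41.7% and 60.0%, beside 37.6%, 36.7% and 49.8% of all positions given a gene. Slc28a3, a concentrative nucleoside transporter, was Up at all 5 positions, 3 in susceptible against control and 1 site, at 19.4 kb, for the resilient group in both of its tables. Its relative Slc28a1 had 1 Up and 1 Down in resilient against control and 1 Up in resilient against susceptible, and Slc29a3, the lysosomal nucleoside transporter, 1 Down and 2 Down against control. Slc35f4 had 1 Up and 1 Down, 1 Up and 1 Down, and 1 Up and 4 Down, and Slc35f2 1 Up and 1 Down, then 1 Up, in the tables with the resilient group. Carriers of carboxylates, fatty acids, choline, vitamins and other solutes held 5 Up and 14 Down, 6 Up and 6 Down, and 7 Up and 9 Down over 21 genes. The kidney urea transporter Slc14a2 on chromosome 18 had 3 Up and 4 Down, 2 Up and 2 Down, and 2 Up and 4 Down. Slc44a4, a choline transporter-like gene, had 3 Down in susceptible against control and no position in the other tables. Slc16a10, an aromatic amino acid transporter, had 1 Up, 1 Down and 1 Down, and the sulfate transporter Slc13a1 1 Up in each table with the resilient group.

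Other transporter classes are given for comparison. ABC genes were taken by symbol, and most but not all encode ATP-driven transporters. Of them 28 were named, with 21 Up and 18 Down, 15 Up and 18 Down, and 16 Up and 19 Down. P-type ATPase pumps had 20 genes, with 8 Up and 15 Down, 9 Up and 12 Down, and 11 Up and 10 Down. Aquaporins, the water channels, had 4 genes and 5 positions in all. ABC genes had more Up than Down positions in susceptible against control, where solute carriers and the pumps had more Down. Over all positions given a gene 37.6%, 36.7% and 49.8% were Up.

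Nucleosome shifts were rare in solute carrier genes, as they were in all named genes. The authors' deposited tables listed 2, 3 and 3, in 1.23%, 1.85% and 1.85% of the 162 genes, beside 2.15%, 1.93% and 1.70% of all named genes. The sign is as deposited, and no header says which group it starts from; 4 were positive and 4 negative. In susceptible against control they were 80 bp at Slc6a18 and 60 bp at Slc7a15. In resilient against control they were -70 bp at Slc41a3, -70 bp at Slc5a4a and 80 bp at Slc16a12, a creatine transporter gene. In resilient against susceptible they were -80 bp at the dopamine transporter gene Slc6a3, 60 bp at Slc25a21 and -80 bp at Slc36a3.

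In 3 of these genes a shift met a listed occupancy position to the base. In Slc16a12 the shift was listed at 34800052 of chromosome 19, and the base 80 bp further, 34800132, was listed Up in resilient against susceptible. In Slc36a3 the shift of -80 bp was listed at 54947082 of chromosome 11, and the base that far before it, 54947002, was listed Up in resilient against control. In Slc5a4a the base of the -70 bp shift, 75638722 of chromosome 10, was itself listed Down in susceptible against control. In each case the shift and the occupancy position come from different tables that share 1 group. Over all 1635 shifts outside chromosome 1, measured the same way, 279 (17.1%) had an occupancy position at either end, and 3 of 8 is too few to set these genes apart.

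ACF1 segments, the minority state E2 of the authors' 2-state division of the genome in steps of 200 bp, overlapped 3 of the 162 genes in the control list, 1 in the susceptible list and 1 in the resilient list. These are 1.85%, 0.617% and 0.617%, beside 1.81%, 2.50% and 1.40% of all named genes. The files do not say which state stands for ACF1 binding. Slc30a4, a zinc transporter that loads vesicles and milk, held a segment in every list, over the last part of the gene: 122506601 to 122508400 of chromosome 2 in the control and resilient lists (1800 bp) and 122507001 to 122508400 in the susceptible list (1400 bp). The gene is 21.4 kb long. The single H3 position of Slc30a4, Down in resilient against susceptible at 122507582, lay inside the segment of every list, and was the only solute carrier position inside a susceptible or a resilient segment.

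The other segments were in the control list. Slc10a7 held one of 800 bp, 81236201 to 81237000 of chromosome 8, 203 kb from its start, and a position Down in susceptible against control lay 9772 bp from it. Slc44a5 held one of 800 bp, 153794601 to 153795400 of chromosome 3, 158 kb from its start, with no listed H3 position within 10000 bp. Outside the bounds, a control segment of 1600 bp lay between Slc36a3 and Slc36a2, 54968001 to 54969600 of chromosome 11. A position Down in susceptible against control, at -2863.5 bp from the start of Slc36a3, lay inside it. The nearest segment of the other lists was 1013472 bp away. The proximal promoter position of Slc36a3, printed above with its sequence, lay 2659 bp from the same segment. In all, 5 of the 379 positions were within 10000 bp of a control segment, 1 of a susceptible and 1 of a resilient one. The proximal promoter site of Slc36a3 enters the 5 once for each table that named it. The same share over all listed positions was not counted, so these numbers do not set the control list apart.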

How the data were processed

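H3 ChIP-seq after micrococcal nuclease digestion and ACF1 ChIP-seq were analysed for control, susceptible and resilient mice. CASAVA 1.8.2 and the build mm9 are named per the submitters' processing notes. Which aligner and which programs made the tables is not given in the sources here. The deposited files hold no reads or counts: the authors' H3 tables give selected positions with Up or Down or a shift in bp, the gene, its bounds and the distance to its start, and the authors' segment files give states without a score. In all 29818 rows with a gene the distance equalled the position less the gene start. The other 9 of 15 samples were not analysed here.

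Genes were taken by symbol outside chromosome 1, where the susceptible against control table lists a far higher number of Down positions. Bounds are the widest per gene (8 genes have more than 1 accession). A segment counts with 1 bp of overlap. Positions are 1-based. Counts, shares and medians are set beside the same over all genes; no test was made, since each comparison has 1 table. The counting was tested on simulated tables. Named genes are the 20 with most positions, all with a shift or segment, all of Slc1, Slc6, Slc17, Slc18 and Slc32, and up to 3 more per group. Slc5a9, Slc35e4, Slc22a14 and Slco1a4 are named for their promoter positions, and absent genes as markers. The marker list for inhibitory neurons is not reported here. The members and lists were chosen with earlier results of these data known. Promoters are from RefSeq (GRCm38.p6). Scripts ran in Python 3.11.15 with pandas 2.3.3, numpy 2.4.6, matplotlib 3.10.9 and scipy 1.17.1.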

Additional observations from a re-analysis of the deposited data

How the results depend on the processing

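Of 36 alternative values for the main shares and counts, 32 stayed close to the reported value (a count within 1.5 times, a share within the exact 95% binomial interval of the reported share, taken over positions as if independent). With chromosome 1 included, the Up share in susceptible against control was 22.2% and the number of shifts 16. The control list touched 5 genes when a segment within 5000 bp counted and 1 when segments had to be at least 1000 bp wide. The other alternatives (genes in place of positions, without Slco genes, without the gene with most positions, within gene bounds, neighbours merged) kept the Up shares of the 3 tables between 31.9% and 50%. Merging neighbours within 200 bp could change nothing, since no table listed any in these genes, so its values among the 32 are no check. Leaving out Slco genes, the gene with most positions or positions outside the bounds removed too few positions for a share to leave its interval. Those values among the 32 are therefore no check either. For single genes 2 alternatives, neighbours merged and gene bounds, were added after seeing the data. Merging could again change nothing. Of the 40 values of both, 1 moved: Slc36a3 has 2 positions inside its bounds, not 5. No stricter threshold could be set, since no file has a score. No paired analysis was possible because each group has 1 sample per target. Leaving out a replicate was not possible for the same reason.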

Other observations

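The 19 solute carrier genes on chromosome 1 were left out of the counts above. In susceptible against control they held 127 Down and 5 Up positions, 3.79% Up, beside 1.62% of the 11436 positions given a gene on that chromosome. In resilient against control they held 4 Up and 3 Down positions and in resilient against susceptible 1 Up and 2 Down. The sodium-proton exchanger gene Slc9a2 had 24 Down and 2 Up positions in susceptible against control and its neighbour in the family, Slc9a4, 11 Down. The organic anion transporter genes Slco6d1, Slco4c1, Slco6b1 and Slco6c1 had 18, 12, 12 and 7 Down and 0 Up in that table, and Slc40a1, which encodes the iron exporter ferroportin, 6 Down and 1 Up. All 14 shifts listed in these genes were in susceptible against control. Since nearly every position of the chromosome was Down in that table, these genes are not set apart from it.

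Of 24 transporter genes used as markers of cell types, 10 were named outside chromosome 1, beside 44.2% of all protein-coding genes with a solute carrier symbol. They included 3 of 7 for endothelium (Slco1a4, Slco1c1 and Slc22a8), 2 of 6 for astrocytes (Slc1a2 and Slc6a11), 1 of 2 for excitatory neurons (Slc17a6), 1 of 2 for cholinergic neurons (Slc18a3), 3 of 3 for monoamine neurons and 0 of 2 for oligodendrocytes, of which Slc45a3 lies on chromosome 1. The files hold no expression level, so the labelled tissue could not be checked against these markers.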
